A study of Homo sapiens with 20 samples.

Results

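The KCNQ5 and RIMS1 locus is a stretch of 1450 kb on the long arm of chromosome 6 that holds the whole of RIMS1 and, after it, the whole of KCNQ5. Its members are the anchor pairs, or chromatin loops, with at least 1 anchor overlapping this stretch in any of 4 Hi-C loop lists, and there were 423 of them among 572000 distinct anchor pairs in all lists and 31348 on chromosome 6. The locus was chosen by measured values of 42MGBA and 42MGBA 53-1 cells. It holds the strongest loop in the whole series that is listed in 42MGBA and missing from 42MGBA 53-1. Every value of the comparison of these lines is therefore given here as a description and carries no test. H4 and 42MGBA are human glioblastoma (GBM) cell lines, each with its own naturally occurring truncating STAG2 mutation, a frameshift in H4 and a stop codon in 42MGBA. Gene editing restored STAG2 in a derivative of each, named H4 88-1 and 42MGBA 53-1. All 4 lines were grown in the same serum-containing medium, and Hi-C, which counts ligation junctions between stretches of chromatin that lie close together in the nucleus, was done on 2 replicates of each. Every isogenic pair consists of a parental line and a single edited line, so that an effect of STAG2 correction and a difference particular to the edited line cannot be told apart. The lists give chromatin contacts and no expression, so that the brain origin of the lines could not be checked against marker genes.

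Cohesin is a ring-shaped complex that extrudes chromatin into loops, and CTCF bound to DNA stops it at loop anchors, preferentially where the motifs at both ends point toward each other. STAG2 is 1 of the alternative subunits that complete the ring. KCNQ5 encodes a voltage-gated potassium channel subunit that contributes to the M-current, a slow current that restrains repeated firing of neurons. RIMS1 encodes a scaffold of the presynaptic active zone, where it links synaptic vesicles and calcium channels. Both genes are known mainly from neurons, and both are transcribed toward the end of the chromosome's long arm, with RIMS1 ahead of KCNQ5.

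Each list holds the 300000 strongest pairs of 5 kb anchors of a cell line, with a deposited signal, the loop strength, in which the replicates are already pooled. No read counts accompany the strengths, so that the depth behind a single loop is unknown and neither a counting error nor a replicate error can be given. A loop missing from a list was either weaker than the lowest listed strength or not scored, and these cannot be told apart. The H4 list ended at a strength of 4.14, the H4 88-1 list at 4.44, the 42MGBA list at 4.49 and the 42MGBA 53-1 list at 4.28. All differences between cell lines below therefore compare 4 pooled libraries, and where a loop is missing from a list its fold difference is a lower bound against that lowest strength.

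The members fell into 7 groups of neighbouring anchor pairs, of which the largest 2 join 4 anchors. The first of the 4 anchors, called the RIMS1 end anchor here, lies at chr6:73120496-73125200 (hg19), in no annotated gene and 7644 bp beyond the 3′ end of RIMS1. The KCNQ5 start anchor at chr6:73328409-73333112 holds the first exon of KCNQ5 with its untranslated and coding sequence, and also exonic sequence of the divergent lncRNA KCNQ5-DT. The KCNQ5-AS1 anchor at chr6:73839676-73844676 holds a coding exon of KCNQ5 and an exon of the antisense lncRNA KCNQ5-AS1. The KCNQ5 intron anchor at chr6:73888191-73893185 lies in an intron near the 3′ end of the gene. The KCNQ5 start anchor has a GC content of 55.6% and 240 CG dinucleotides, against 49, 54 and 26 in the RIMS1 end, KCNQ5-AS1 and KCNQ5 intron anchors, and a median GC content of 41.8% over all 128561 listed anchors. The 250 bases before the first annotated start of KCNQ5, chr6:73331270-73331519 on the plus strand of hg19, are shown because this promoter is the loop anchor of the KCNQ5 start, with each CG in capitals.
KCNQ5 promoter: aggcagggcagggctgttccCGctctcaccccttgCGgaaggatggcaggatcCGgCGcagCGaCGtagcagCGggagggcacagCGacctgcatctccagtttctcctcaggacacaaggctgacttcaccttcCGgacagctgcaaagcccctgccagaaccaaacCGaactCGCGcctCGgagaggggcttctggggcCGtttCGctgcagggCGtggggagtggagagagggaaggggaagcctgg

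Sequences that hold the CTCF core motif in anchors of the locus are printed on the strand of the motif, with the 12 motif letters in capitals and 20 bases on each side, because the orientation of such motifs can be read from them. The motif was searched on both strands by exact match, and 3 of the 82 anchors of the locus held it (3.66%), against 3.93% of all listed anchors. In the RIMS1 intron it lies on the minus strand at chr6:72794837-72794888, just upstream of the KCNQ5 start it lies on the plus strand at chr6:73326308-73326359, and past the 3′ end of KCNQ5 it lies on the minus strand at chr6:73917589-73917640.
RIMS1 intron, minus strand: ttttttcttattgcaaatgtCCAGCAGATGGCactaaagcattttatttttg
KCNQ5 upstream, plus strand: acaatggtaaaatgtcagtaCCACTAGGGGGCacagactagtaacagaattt
KCNQ5 downstream, minus strand: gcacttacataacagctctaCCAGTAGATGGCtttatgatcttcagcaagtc

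None of the 4 main anchors held an exact match. With 1 mismatch allowed, a setting added after the exact matches were seen, each of the 4 held at least 1, as did 29.0% of all listed anchors and 30.5% of the anchors of the locus. The RIMS1 end anchor held a match on each strand, the KCNQ5 start anchor held a match on the plus strand within coding sequence, and the KCNQ5-AS1 and KCNQ5 intron anchors each held a match on the minus strand. The matches outside coding sequence are printed for the ends of the 2 largest groups of loops, at chr6:73122078-73122129 and chr6:73122018-73122069 for the RIMS1 end, chr6:73844399-73844450 for KCNQ5-AS1 and chr6:73890912-73890963 for the KCNQ5 intron. Such a match is a description of the letters and not of CTCF binding.
RIMS1 end, plus strand: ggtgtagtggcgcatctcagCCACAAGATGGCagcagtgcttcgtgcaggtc
RIMS1 end, minus strand: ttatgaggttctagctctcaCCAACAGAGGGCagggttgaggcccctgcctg
KCNQ5-AS1, minus strand: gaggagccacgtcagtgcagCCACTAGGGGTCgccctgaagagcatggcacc
KCNQ5 intron, minus strand: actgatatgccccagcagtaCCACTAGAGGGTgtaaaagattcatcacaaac

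The H4 list held 326 loops of the locus, the H4 88-1 list 267 and the 42MGBA list 315, and the 42MGBA 53-1 list held 0. All 4 lists held loops on the rest of chromosome 6, with 17592, 16352, 18709 and 12663 on the whole chromosome in the same order. The loops of the locus were long, with a median size between anchor midpoints of 696 kb in H4, 569 kb in H4 88-1 and 564 kb in 42MGBA, against 348, 312 and 307 kb over the whole lists. Their strengths were close to those of the lists as a whole, with a median of 5.28 in H4, 5.65 in H4 88-1 and 5.81 in 42MGBA against list medians of 5.17, 5.52 and 5.54. Of the 423 loops, 202 (47.8%) were listed in H4, H4 88-1 and 42MGBA together and not in 42MGBA 53-1, a pattern shown by 4.48% of all loops of the series. Loops listed in H4 alone and in 42MGBA alone numbered 58 each (13.7%), where the series had 10.4% and 9.38%. A further 40 (9.46%, against 1.57% of the series) were listed in both of these STAG2-mutant lines and in neither corrected line. Since 42MGBA 53-1 listed no loop here, its absence is automatic in the locus, and these shares of the series are not a like measure. In the series, 10.7% of loops were listed in 42MGBA and 42MGBA 53-1 only, and 2.36% in H4, 42MGBA and 42MGBA 53-1 only. No excess is read from these patterns. No loop of the locus was listed in all 4 lines, as 19.3% of the loops of the series were.

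**Figure D1:**
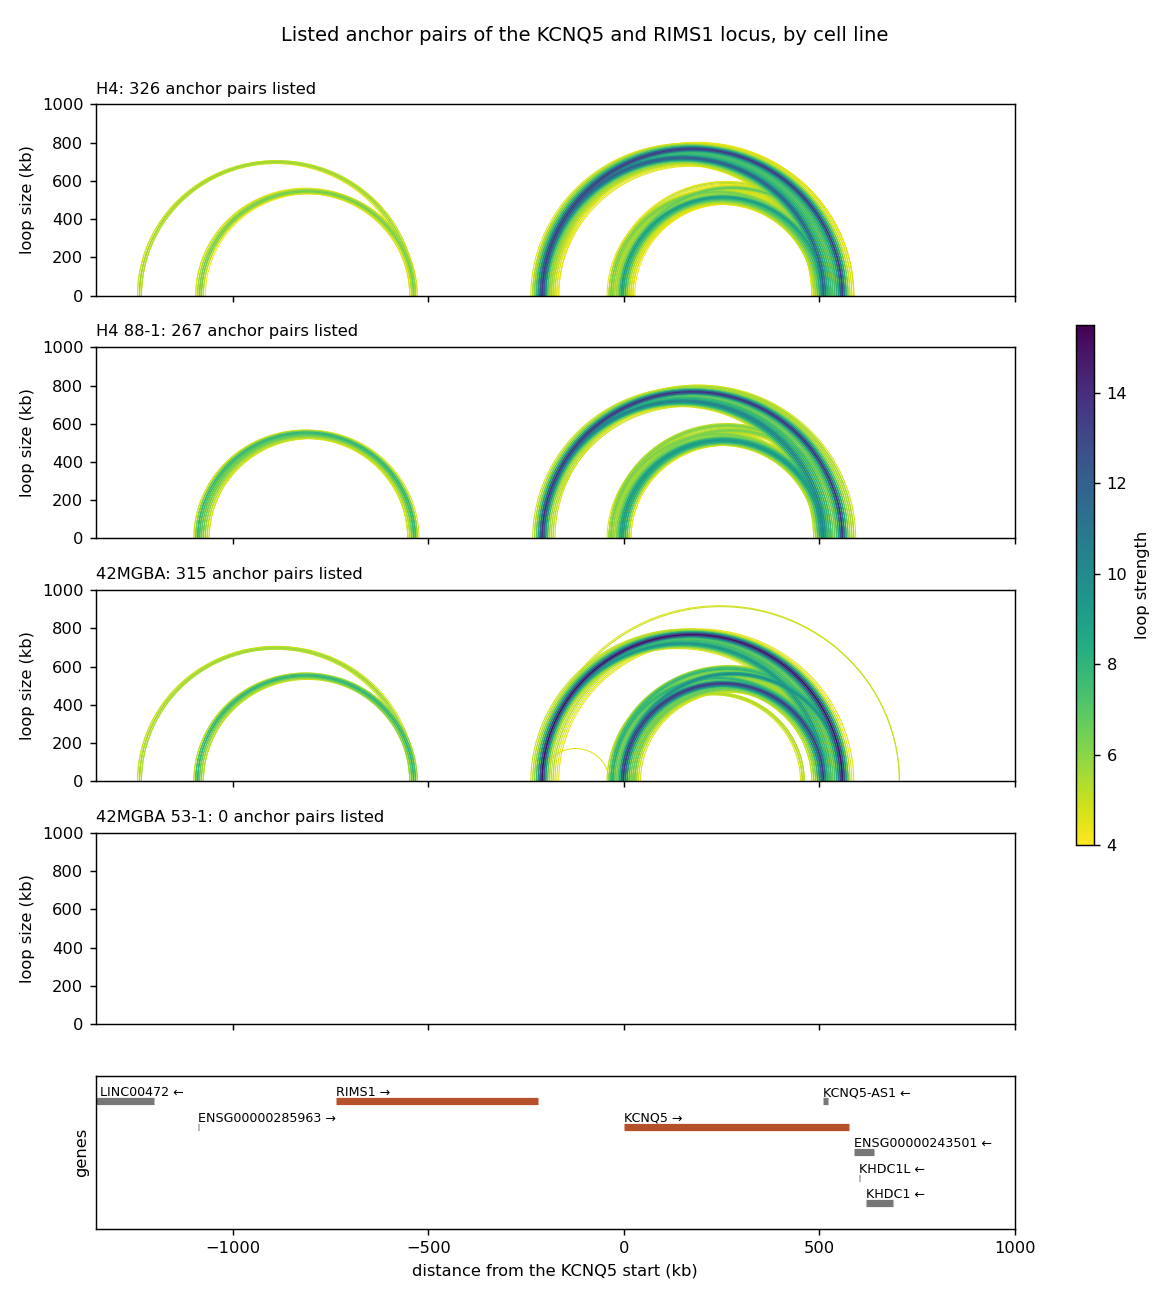
Listed anchor pairs of the locus as arcs in each of the 4 cell lines, with distance from the KCNQ5 start in kb on the horizontal axis, loop size in kb as the height of an arc and loop strength as its color, above the annotated genes. The same 2 bundles of arcs, from the region around the end of RIMS1 and from the KCNQ5 start to the 3′ part of KCNQ5, are drawn for H4, H4 88-1 and 42MGBA, and the panel of 42MGBA 53-1 is empty.

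The strongest loops joined the RIMS1 end to the 3′ part of KCNQ5. This group held 181 loops, of which 178 were listed in H4, 119 in H4 88-1 and 110 in 42MGBA. Its strongest loop, between the RIMS1 end and KCNQ5 intron anchors over 768 kb, was also the strongest loop of the locus in each of the 3 lines. It had a strength of 13.8 in H4, 14.1 in H4 88-1 and 15.2 in 42MGBA and was not listed in 42MGBA 53-1. The 3 listed values span a narrow range, and they placed the loop at rank 2645, 2669 and 1969 of the 300000 in each list. From the same RIMS1 end anchor to the KCNQ5-AS1 anchor, over 719 kb, the strength was 12.2 in H4, 10.7 in H4 88-1 and 9.65 in 42MGBA, so that here H4 was highest and 42MGBA lowest of the listed values. Most loops of this group began beyond RIMS1, but 50 of the 181 began at 5 anchors that overlap its last part, chr6:73091557-73115538. These anchors include coding exons and, in the last of them, the annotated 3′ end of the gene. The H4 list held 50 of these loops, the H4 88-1 list 23 and the 42MGBA list 26, with highest strengths of 9.90, 9.09 and 9.83, all below those of the loops that began beyond the gene.

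The largest group, with 182 loops, joined the KCNQ5 start region to the same 3′ part of KCNQ5. Its left anchors, chr6:73286702-73376962, lie on both sides of the first annotated start at 73331520. Part of the group therefore begins upstream of the gene and not within it. The H4 list held 120 of the 182 loops, the H4 88-1 list 107 and the 42MGBA list 165. The loop between the KCNQ5 start and KCNQ5-AS1 anchors, over 511 kb, had a strength of 8.78 in H4, 8.89 in H4 88-1 and 13.8 in 42MGBA. The loop between the KCNQ5 start and KCNQ5 intron anchors, over 560 kb, had a strength of 6.29 in H4, 5.56 in H4 88-1 and 10.1 in 42MGBA. In both loops the 2 H4 lines lay close together and 42MGBA lay above them, by 1.57-fold and 1.60-fold over H4. The strongest loop of this group in H4 and H4 88-1, at 9.43 and 9.39, ran from the neighbouring anchor at chr6:73323964-73328408, which holds the exact CTCF core motif upstream of KCNQ5, to the KCNQ5-AS1 anchor.

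**Figure D2:**
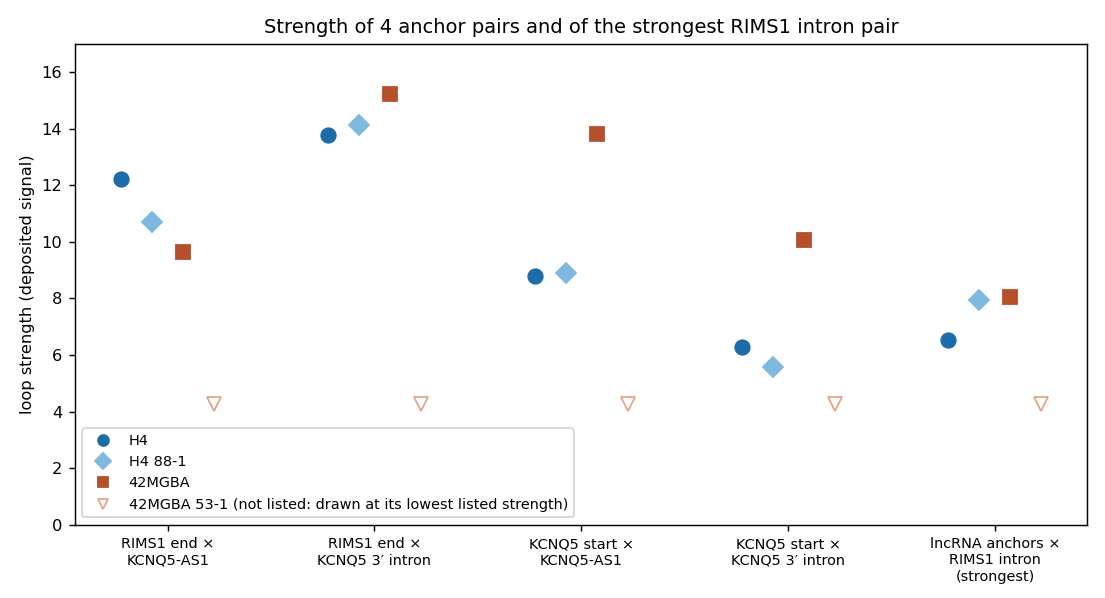
Loop strength, the deposited signal, on the vertical axis for the 4 loops between the main anchors and for the strongest loop of each line between the lncRNA region and the RIMS1 intron, with a symbol for each cell line and no error bars because the replicates are pooled. For the 2 loops of the KCNQ5 start, 42MGBA stands at 13.8 and 10.1 above H4 and H4 88-1, and 42MGBA 53-1 is drawn as an open triangle at its lowest listed strength of 4.28 because it lists none of them.

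Further inside RIMS1, 2 smaller groups shared an intron of the gene. In the first, 41 loops joined chr6:72229691-72273547, where the lncRNA ENSG00000285963 is annotated, to chr6:72776871-72810096 in RIMS1. The H4 list held 19 of them, the H4 88-1 list 41 and the 42MGBA list 22, with a highest strength of 6.54 in H4, 7.96 in H4 88-1 and 8.05 in 42MGBA. In the second, 9 loops ran from the lncRNA gene LINC00472 to the same intron, and H4 listed 9 with a highest strength of 5.92, 42MGBA listed 8 with a highest strength of 5.74, and H4 88-1 listed 0. The remaining 3 groups were listed in 42MGBA alone and were weak. They comprised 7 loops from the KCNQ5 start to the intron around chr6:73781540-73795526, at most 5.43 in strength, 2 loops from the RIMS1 end to a region beyond KCNQ5, at most 5.02, and a single loop of 171 kb from the RIMS1 end to the region before KCNQ5, at 4.52.

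The anchors with the most listed loops were the same few in each line. In H4 the KCNQ5-AS1 anchor took part in 31 loops and the KCNQ5 intron anchor in 27. In H4 88-1 the KCNQ5-AS1 anchor took part in 24, and the RIMS1 end and KCNQ5 intron anchors in 23 each. In 42MGBA the KCNQ5 intron anchor took part in 31, the KCNQ5-AS1 anchor in 26 and the RIMS1 end anchor in 24. Many of these loops are shifts of each other by a single anchor, so that they are not independent observations.

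Correction of STAG2 in H4 cells was compared first, since the locus was not chosen on this contrast. Of the loops of the locus, 228 were listed in both H4 and H4 88-1, and the log2 ratio of H4 88-1 to H4 over them had a median of -0.0050 and ran from -0.53 to 0.63, with 112 loops higher in H4 88-1. The groups differed in the sign of their medians. Loops from the RIMS1 end to KCNQ5 had a median log2 ratio of -0.12, with 29 of 117 higher in H4 88-1, and loops of the KCNQ5 start had a median of 0.091, with 64 of 92 higher. Loops from the ENSG00000285963 region to the RIMS1 intron had a median of 0.29, with 19 of 19 higher in H4 88-1. Across the genome the median was 0.088 over 213275 loops listed in both lines, of which 136613 were higher in H4 88-1. The loops of the KCNQ5 start thus lay near the genome-wide median. The loops from LINC00472 to the RIMS1 intron enter none of these medians, since all 9 were listed in H4 and 0 in H4 88-1, and the strongest of them had a z-score of -1.09 in the comparison described next. Of the 326 loops of the locus in H4, 98 (30.1%) were missing from H4 88-1, where 28.9% of the whole H4 list was. Of the 267 in H4 88-1, 39 (14.6%) were missing from H4, against 28.9% of the whole H4 88-1 list.

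The 100000 strongest loops of both lines of a pair were then merged and the strength after correction was regressed on that before it. A residual whose z-score passed a fixed cutoff made its loop specific to the line in which it was stronger. These z-scores rank loops over 1 library per line and are not a test. In the H4 pair, 134 loops of the locus were merged, and 1 was called specific to H4, beside 2.17% of all merged loops. This call was lost, leaving 0, with an intercept in the regression, with z-scores of the log2 ratio and with z-scores within bins of size. The loop joined the anchor next to the RIMS1 end, chr6:73115539-73120495, to the KCNQ5-AS1 anchor, and its strength fell by 0.42 on the log2 scale, from 11.5 in H4 to 8.59 in H4 88-1, with a z-score of -2.00. The next loop, which shares its KCNQ5-AS1 anchor, had strengths of 8.94 and 6.21 and a z-score of -1.88, inside the cutoff. No merged loop of the locus was called specific to H4 88-1, beside 1.94% of all merged loops, and the highest z-score, 1.47, belonged to a loop of the RIMS1 intron whose strength went from 5.15 in H4 to 7.96 in H4 88-1. The median log2 ratio over the merged loops of the locus was -0.042, beside 0.028 on the rest of chromosome 6 and 0.074 over all merged loops.

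In the 42MGBA pair all 315 loops of the locus listed in 42MGBA were missing from 42MGBA 53-1, where 32.0% of the whole 42MGBA list and 48.2% of its other chromosome 6 loops were missing. Of the 128 merged loops of the locus, 53 (41.4%) passed the cutoff as specific to 42MGBA, beside 2.45% of all merged loops, and 0 were specific to 42MGBA 53-1, beside 1.61%. Because this contrast chose the locus, the counts describe it and nothing is read from them. All 53 were also listed in both H4 and H4 88-1. By group, 27 joined the RIMS1 end to KCNQ5, 25 lay at the KCNQ5 start and 1 reached the RIMS1 intron. Their strength in 42MGBA was at least 1.88-fold to at least 3.56-fold the lowest strength listed in 42MGBA 53-1, with a median lower bound of 2.23-fold. The loop between the RIMS1 end and KCNQ5 intron anchors had the z-score furthest from 0, at -6.03, and the loop between the KCNQ5 start and KCNQ5-AS1 anchors had a z-score of -5.23. Just past the cutoff lay a loop of the RIMS1 intron with a strength of 8.05 in 42MGBA and a z-score of -1.97, and just inside it a loop of the KCNQ5 start with a strength of 8.004 and a z-score of -1.95. The other 75 merged loops were also missing from 42MGBA 53-1, and they fell inside the cutoff because their strength in 42MGBA was at most 8.004. Over all 128 the median log2 ratio of 42MGBA 53-1 to 42MGBA was at most -0.83, beside -0.35 on the rest of chromosome 6 and -0.11 over all merged loops.

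**Figure D3:**
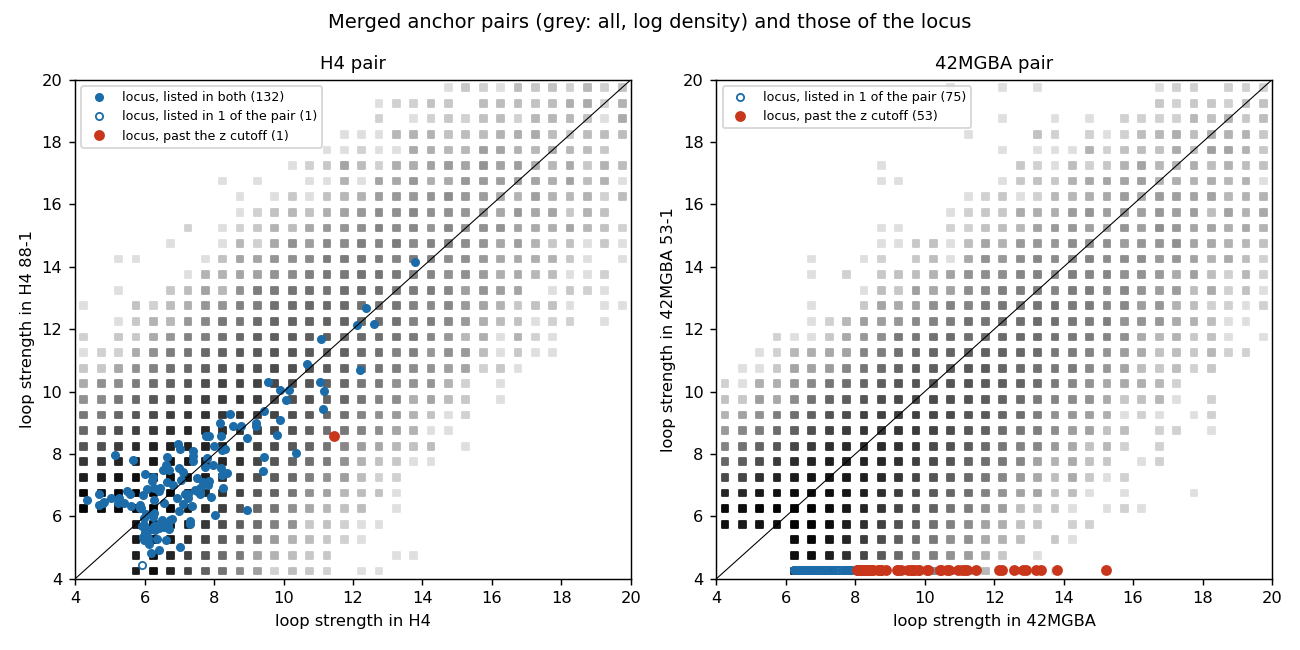
Loop strength in STAG2-mutant (horizontal axis) and STAG2-corrected cells (vertical axis) for the H4 pair and the 42MGBA pair, shown up to 20, with all merged loops as grey squares, loops of the locus as circles and the line of equal strength. Loops of the locus scatter around the line in the H4 pair, with 1 past the cutoff, and all 128 lie at the lowest listed strength of 42MGBA 53-1 in the 42MGBA pair, with 53 past the cutoff.

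The loops missing from 42MGBA 53-1 formed a single unbroken interval. The 42MGBA 53-1 list used no anchor from chr6:72239428-74200755, a length of 1961 kb, inside which 315 loops lay in H4, 260 in H4 88-1 and 300 in 42MGBA. No list held a loop spanning this interval. Within 1 Mb to its left, 42MGBA 53-1 listed 104 loops, more than the 62 of 42MGBA, the 27 of H4 88-1 and the 6 of H4. Within 1 Mb to its right it listed 40, beside 37 in 42MGBA, 29 in H4 88-1 and 2 in H4. The strongest loop of 42MGBA in the left flank, chr6:72090529-72095437 with chr6:72220404-72224720, had a strength of 9.23 in 42MGBA, 8.44 in 42MGBA 53-1 and 6.13 in H4 88-1 and was not listed in H4. To the right, the loops counted within 1 Mb reached a strength of 7.02 in 42MGBA and 6.26 in 42MGBA 53-1. A wider set of 464 distinct loops on the right included loops that reach further out. Its strongest loop of 42MGBA, chr6:74448523-74452696 with chr6:75918554-75923475, had its second anchor more than 1 Mb beyond the interval. That loop had a strength of 10.1 in 42MGBA, 5.78 in 42MGBA 53-1, 5.69 in H4 88-1 and 5.32 in H4. Over loops listed in all 4 lines, the median log2 ratio of 42MGBA 53-1 to 42MGBA was 0.21 for 6 of 136 distinct loops on the left. For 21 of the 464 loops in the wider set on the right it was -0.53, so that these medians differed in sign. The left anchors of the LINC00472 loops, at chr6:72085556-72100408, took part in 34 loops of 42MGBA 53-1 with a strength of up to 9.36, and in 29 loops of 42MGBA outside the locus with a strength of up to 9.23. These anchors were thus present in the 42MGBA 53-1 list with partners on the left, and their 8 loops to the RIMS1 intron in 42MGBA were missing from it.

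Among 560 intervals of the genome in which 42MGBA 53-1 used no anchor and 42MGBA had loops, this one held the most 42MGBA loops, 300, and the next, on chromosome 3, held 119. In the opposite direction the largest number was 96, and in the H4 pair it was 95 for loops of H4 and 61 for loops of H4 88-1. Among the 95862 loops of 42MGBA missing from 42MGBA 53-1, the strongest was that between the RIMS1 end and KCNQ5 intron anchors, 22 of the strongest 100 lay in the locus, and the strongest outside it had a strength of 11.9. Both orders use the contrast on which the locus was chosen. The lists hold no coverage of single anchors, so that the copy number of this interval and the mapping of reads to it in 42MGBA 53-1 were not tested.

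**Figure D4:**
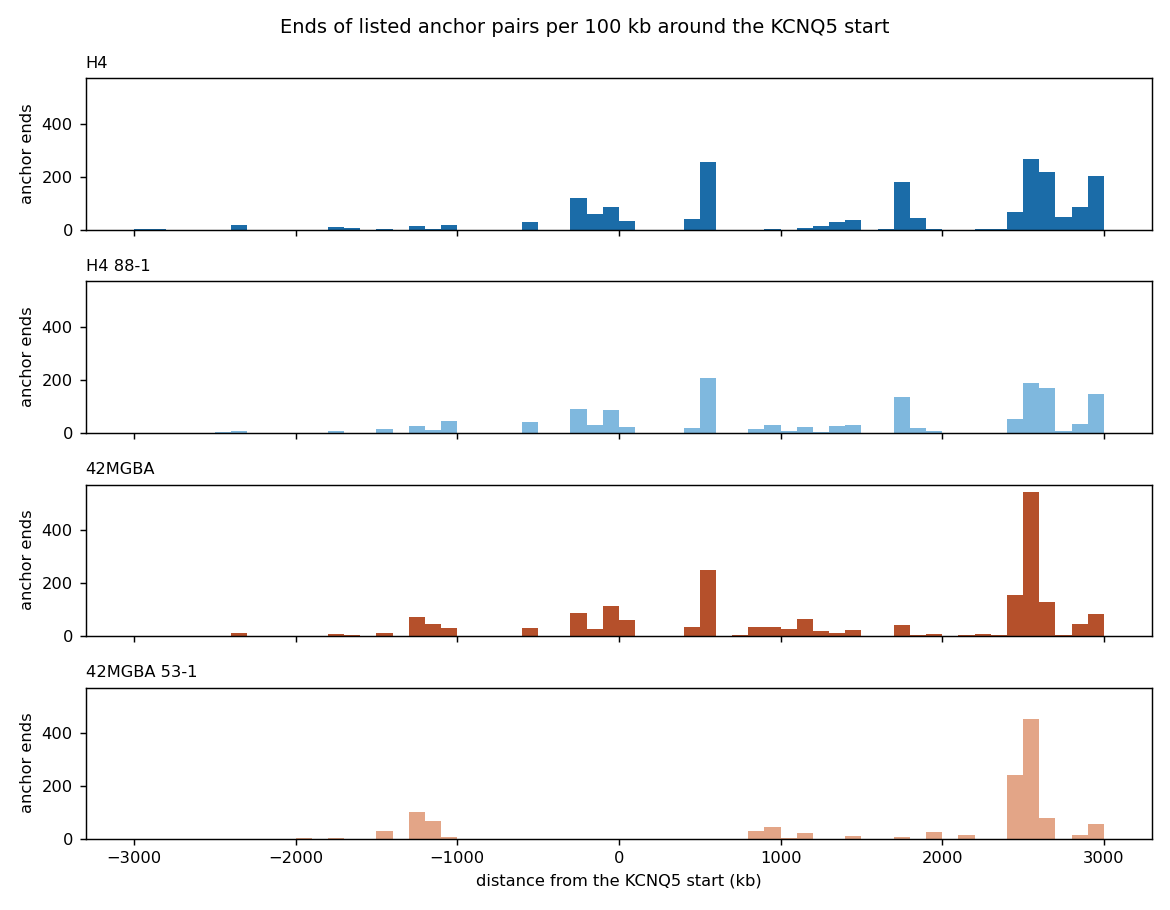
Number of ends of listed loops per 100 kb bin (vertical axis) against distance from the KCNQ5 start in kb (horizontal axis) in the 4 cell lines. The bin that starts 500 kb after the KCNQ5 start holds 257, 207 and 249 ends of H4, H4 88-1 and 42MGBA and 0 of 42MGBA 53-1, while bins on both sides of the interval hold ends in 42MGBA 53-1.

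The 2 parental lines, both STAG2-mutant, differed from each other within the locus. Over loops listed in H4 and 42MGBA, those of the KCNQ5 start had a median log2 ratio of 42MGBA to H4 of 0.33, with 105 of 110 higher in 42MGBA. Those from the RIMS1 end to KCNQ5 had a median of -0.098, with 32 of 109 higher in 42MGBA. Across the genome the median was 0.10 over 158400 loops, of which 97227 were higher in 42MGBA. Of the 182 loops of the KCNQ5 start, 47 were listed in 42MGBA alone and 4 in H4 alone. Of the 181 from the RIMS1 end to KCNQ5, 1 was listed in 42MGBA alone and 53 in H4 alone. The H4 list ended at a strength of 4.14 and the 42MGBA list at 4.49. Some of these H4 loops lie between the 2 limits, where the 42MGBA list could not hold a loop of the same strength. In the series, 9.38% of all loops were listed in 42MGBA alone and 10.4% in H4 alone. Those shares also require absence from 42MGBA 53-1, which holds for every loop here. A further 10.7% of the series was listed in 42MGBA and 42MGBA 53-1 only, and 0.85% in H4 and 42MGBA 53-1 only. No replicate error is at hand to set beside these differences between lines.

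Start sites were then examined gene by gene, a loop being counted when an anchor lay within 3 kb of an annotated start. KCNQ5 has 13 annotated start sites, and 185 loops of the locus met this rule. The H4 list held 143 of them, the H4 88-1 list 112, the 42MGBA list 161 and the 42MGBA 53-1 list 0. The cluster of starts at the first exon, from chr6:73331520-73331918, took part in 42 loops, of which 28 were listed in H4, 22 in H4 88-1 and 42 in 42MGBA. Their highest strength was 8.78, 8.89 and 13.8, so that the loop to the KCNQ5-AS1 anchor described above was the strongest at the first exon in each line. The other KCNQ5 loops lay at 4 internal starts of single transcripts near the 3′ end. The internal start at position 73886073 had 67 loops, and it is the reason why the strongest loop of the locus counts as a KCNQ5 loop. The internal starts at 73713719 and 73751659 had 0 loops. Of the 53 loops specific to 42MGBA, 37 had an anchor at a KCNQ5 start, internal starts included. Of all 315 loops of the locus in 42MGBA, 161 met the same rule. The 53 come only from the stronger, merged loops, and no excess at KCNQ5 starts is read from these counts.

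RIMS1 had 0 loops at its 14 annotated start sites in all 4 lists. The loops that bear on RIMS1 have their anchors in an intron, in the last part of the gene or beyond its 3′ end. Of the lncRNA genes, KCNQ5-AS1 had 99 loops at its start sites, 83 in H4, 70 in H4 88-1 and 72 in 42MGBA, and KCNQ5-DT shared the 42 loops of the KCNQ5 first exon. The other protein-coding genes that start in the stretch, KHDC1, KHDC1L and ENSG00000243501, had 0 loops at their starts in any list.

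Other genes of the channel and of the active zone were examined by the same rule. Of 12 genes of the KCNQ channels (channel subunits, KCNE partner subunits and calmodulins, which bind these channels), 8 had a start-site loop in H4 88-1 and 5 in each of the other lines. The 5 listed in all 4 lines were KCNE1, KCNE2, KCNE3, CALM2 and CALM3. KCNQ1 and KCNQ3, which encode channel subunits, had loops in H4 88-1 alone, at strengths of 4.66 and 4.67, close to the lowest listed. KCNE2 had 2 loops specific to H4, beside 43 listed there, and 1 specific to 42MGBA 53-1, beside 86. CALM2 had 8 specific to H4 88-1, beside 116, and no gene of this list had a loop specific to 42MGBA. Over all merged loops, 2.17% were specific to H4, 1.94% to H4 88-1, 2.45% to 42MGBA and 1.61% to 42MGBA 53-1. The merged loops at each gene are not given, so that nothing is read from these calls. Only the 5 genes with a loop in 42MGBA could lose all loops in 42MGBA 53-1, as KCNQ5 did, and none of these 5 did. Over all protein-coding genes with a start-site loop in 42MGBA the share was 16.5%, so that nothing is read from this count.

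Of 27 genes of the presynaptic active zone, 11 had a start-site loop in H4, 10 in H4 88-1 and 13 in each of the lines of the 42MGBA pair, while 10 had one in all 4 lines and 12 in none. The paralogue RIMS2 had 45 loops in H4, 51 in its corrected derivative, 25 in 42MGBA and 23 in the corrected derivative of 42MGBA, with highest strengths in the same order of 9.13, 9.68, 7.74 and 8.93, and RIMS3 and RIMS4 had 0. ERC1, which encodes another scaffold of the active zone, reached 16.1 in H4, 16.8 in H4 88-1 and 8.79 in 42MGBA in strength. BSN, the gene of the scaffold bassoon, was the only gene of this list with loops in 42MGBA, 10 in number, and 0 in 42MGBA 53-1. Over all 6934 protein-coding genes with a start-site loop in 42MGBA, 1141 (16.5%) had none in 42MGBA 53-1.

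The genes whose strongest start-site loops were most like those of KCNQ5 were sought over 10019 protein-coding genes, as the Euclidean distance of log2 strength over the 4 lists. The nearest were CD82, FJX1 and OR51E1, all on chromosome 11, at distances of 0.467, 0.592 and 0.698. Strengths at CD82 reached 13.6 in the H4 list, 14.9 in that of H4 88-1, 11.2 in that of 42MGBA and 4.66 in that of 42MGBA 53-1, where KCNQ5 had 13.8, 14.1, 15.2 and none listed. RIMS1 had no start-site loop and therefore no such neighbours.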

How the data were processed

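Hi-C reads from 2 replicates of each of 4 cell lines were aligned by the authors to hg19 with bowtie, corrected with HiCorr and enhanced with DeepLoop. What they deposited is, per line and with replicates pooled, a loop strength (signal) for 300000 anchor pairs, so that no replicate error exists and depth is unknown. Smoothing by DeepLoop can spread a loop over neighbouring anchors. The 12 RNA-seq samples were not analysed here. Some genes of the channel list are not reported here by name.

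Members had an anchor overlapping chr6:72550000-74000000. The members and lists were chosen with earlier results of these data known. In each isogenic pair the 100000 strongest pairs were merged, absent ones were given the lowest listed strength, corrected was regressed on mutant strength through the origin, and a z-score beyond 1.96 in size was called specific. The calculation was checked on simulated loops with shifts planted well past the cutoff, which had to be called with the right sign. That check did not simulate loops given the lowest listed strength and says nothing of how reliable the calls are. Neighbours were joined within 10 kb at both anchors. Genes came from GENCODE release 44 lifted to the same build, and a start site counted within 3 kb of an anchor. Of 128561 anchors, 128559 began within 5 bases of a GATC or GANTC site of the reference, as the build requires. The sequences are of GRCh37.

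The text names KCNQ5, RIMS1 and the coding genes that start in the interval, the strongest loop of each list and at each start, the loops of largest z-score, the anchors with the most loops, and the 3 genes most like each. Loops, anchors and genes named beyond these were chosen after their values were seen. Alternatives changed the regression, the scale, the number merged, the fit, the interval and the start-site rule. Python 3.11.15, numpy 2.4.6, pandas 2.3.3 and matplotlib 3.10.9 were used.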

Additional observations from a re-analysis of the deposited data

Results flagged for a closer look

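The log2 ratio of corrected to mutant strength had a different sign in the isogenic pairs for 2 loops. It was 0.037 in H4 and at most -1.83 in 42MGBA for the loop between the RIMS1 end and KCNQ5 intron anchors, and 0.017 in H4 and at most -1.69 in 42MGBA for the loop between the KCNQ5 start and KCNQ5-AS1 anchors. Both H4 ratios lie near 0 and below the median of 0.074 over all merged loops of that pair, and the z-scores, -0.12 and -0.19 in H4 against -6.03 and -5.23 in 42MGBA, share their sign, so that no opposite movement is shown. Each ratio compares 1 pooled value per line, and the difference between the pairs was not tested.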

How the results depend on the processing

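No paired analysis was possible because the authors pooled the replicates of each line into 1 list, and no replicate could be left out for the same reason. Under every alternative run, 42MGBA 53-1 had 0 loops in the locus and RIMS1 had 0 loops at its start sites. The alternatives for the first count keep only a part of the listed loops, so that 0 could not rise. For RIMS1 only the distance of 10 kb could have added loops. Of 79 values of 20 results under alternatives, 54 stayed within 1.5-fold with the same sign or, where 0 was reported, stayed 0. The other 25 moved further. Many of the 54 are counts of 0, and those of 42MGBA 53-1 could not change, so that the 54 is no measure of stability. The loops specific to 42MGBA, 53 in number, became 96 with all 300000 loops of each list merged, 31 with a fit over chromosome 6 alone, 31 with z-scores within bins of size and 7 with neighbouring loops joined. The loop specific to H4 became 0 with an intercept, 0 with z-scores of the log2 ratio, 0 within bins of size, 3 with the 200000 strongest merged and 7 with all 300000 merged, and loops specific to H4 88-1 rose from 0 to 1 in the last of these. The median log2 ratio of the H4 pair changed sign, to 0.011 with all 300000 merged and to 0.028 with the median of loops of the same size subtracted. Among the 100000 strongest loops of each list, the locus held 119 in H4, 100 in H4 88-1 and 128 in 42MGBA. Loops at KCNQ5 starts numbered 69 in H4, 56 in H4 88-1 and 78 in 42MGBA where the anchor had to overlap a start, 232 in H4 and 176 in H4 88-1 within 10 kb, and 28, 22 and 42 at the first base of the gene. With 1 mismatch allowed, chosen after seeing the data, 25 anchors of the locus in place of 3, and 4 of the main anchors in place of 0, held the CTCF core motif. In the 42MGBA pair no value could be had from loops listed in both lines, since no loop of the locus was. The cause of each change was not tested.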
